A study of Mus musculus with 10 samples.

Results

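The miR-15/16 family and its relatives miR-103 and miR-107 are microRNAs (miRNAs), short RNAs that pair with messenger RNAs through their seed (bases 2 to 8 from the 5′ end) and lower their translation or stability. The members were taken by name: the 5p arms of miR-15a, miR-15b, miR-16, miR-195a, miR-497 and miR-322 and the 3p arms of miR-103 and miR-107. All 8 were on the array, out of 1892 miRNAs measured, each with 2 spots. Each of the 10 samples, 5 titled T-C cell and 5 titled control cell, had a one-colour array of its own, stained with Cy3 from 1 µg of total RNA. The T-C cell samples carry the source label Col-/- and the control cell samples the label Control Col, and both groups are described as sle liver, from male animals, grown by a mouse liver cell culture protocol. The protocol, worded alike for both groups, has T-C cells at 100000 a dish given TN-CF (0.5 mg) for 24 hours beside a control, so source and treatment cannot be told apart. The labels leave T-C, Col, TN-CF and sle without a definition. They also do not tell whether replicates are separate animals or dishes, so a p-value here reflects variation among these 10 arrays, possibly technical variation alone.

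Members of the miR-15/16 family restrain the cell cycle and cell survival by targeting cyclins D and E and the anti-apoptotic protein BCL2, and the human miR-15a and miR-16-1 genes are lost in many chronic lymphocytic leukaemias. miR-103 and miR-107 lie in introns of the pantothenate kinase genes, whose enzymes start coenzyme A synthesis, and in mice they lower insulin sensitivity in liver and fat. miR-16 and miR-103 are widely expressed and are often used as references in miRNA assays.

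The mature sequences show what the members share. The seed is in capitals, and the sequences are RefSeq's (GRCm38.p6), matched to the array's targets.
mmu-miR-16-5p: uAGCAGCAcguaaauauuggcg
mmu-miR-15a-5p: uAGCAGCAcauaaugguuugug
mmu-miR-15b-5p: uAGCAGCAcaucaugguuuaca
mmu-miR-195a-5p: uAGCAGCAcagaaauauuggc
mmu-miR-497-5p: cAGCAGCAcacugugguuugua
mmu-miR-322-5p: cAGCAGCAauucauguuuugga
mmu-miR-103-3p: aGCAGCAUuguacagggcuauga
mmu-miR-107-3p: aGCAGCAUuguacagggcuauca
The first 6 have the seed AGCAGCA and the last 2 the seed GCAGCAU. The 2 seeds share the run GCAGCA, placed 1 position apart. All 8 targets matched a RefSeq mature miRNA, and they come from 10 hairpins. Outside the seed the members differ by varying amounts. mmu-miR-103-3p and mmu-miR-107-3p are identical at 22 of 23 bases, with the substitution G22C counted from the 5′ end of mmu-miR-103-3p. mmu-miR-16-5p and mmu-miR-195a-5p are identical at 19 of 21 bases, and mmu-miR-15a-5p and mmu-miR-15b-5p at 18 of 22. Close relatives such as these can share signal on an array.

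No member passed the test between T-C cell and control cell samples. The limma fit covered 476 miRNAs, with Benjamini-Hochberg adjusted p under 0.05 as the threshold. Of the members 0 of 8 passed, where 7.77% of all tested miRNAs (37) did, 1.47% (7) as higher and 6.30% (30) as lower. At an unadjusted p of 0.05, also 0 of 8 members passed, where 18.3% of all tested miRNAs did. The groups overlapped for each member, while 3.78% of all tested miRNAs had groups that did not. The median log2 difference, T-C cell minus control cell, was 0.05 over the members and 0.02 over all tested miRNAs, and the median size of the difference was 0.06 over the members and 0.17 over all tested miRNAs. On average 6 members were higher and 2 lower, but the signs are not firm: that of mmu-miR-103-3p turned under median centring and with array weights, that of mmu-miR-107-3p with array weights and that of mmu-miR-322-5p without normalization. For scale, miR-29a-3p differed by −4.45 on these arrays. The 95% intervals reached 0.28 to 0.56 log2 units to either side of the estimate, and the bound farthest from 0 was 0.83, for mmu-miR-497-5p. The count of 37 over all miRNAs depended on single arrays, whose values are given in the closing section. The count of 0 members stayed the same, but fits that called few miRNAs in all could hardly have changed it.

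**Figure D1:**
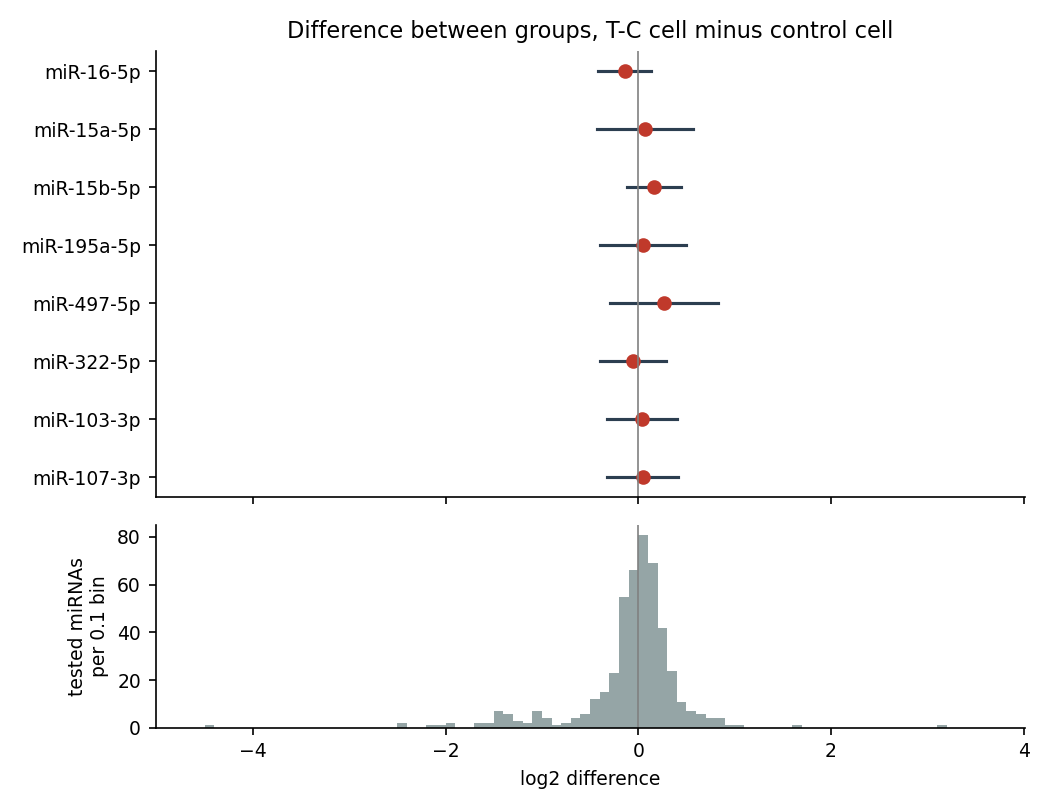
Upper panel: log2 difference of each member, T-C cell minus control cell (points), with its 95% interval from limma (lines, 5 arrays per group). Lower panel: the differences of all 476 tested miRNAs in bins of 0.1. Each member's interval includes 0, and the members' differences lie between −0.14 and 0.27, while the tested miRNAs reach down to −4.45.

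By brightness, the members formed 3 tiers. mmu-miR-16-5p was the brightest on each of the 10 arrays and ranked between 22 and 29 among the 1892 miRNAs on an array. It stood above mmu-miR-103-3p, the next, by 1.32 ± 0.26 log2 units within arrays (SD, n = 10). mmu-miR-103-3p, mmu-miR-15b-5p, mmu-miR-107-3p and mmu-miR-195a-5p followed, and neighbours in this order did not separate beyond their spread: the within-array difference was 0.06 ± 0.30 for the first pair of neighbours, 0.00 ± 0.29 for the second and 0.03 ± 0.28 for the third (SD, n = 10). mmu-miR-195a-5p stood above mmu-miR-15a-5p by 1.28 ± 0.55 and on 10 of 10 arrays. mmu-miR-15a-5p, mmu-miR-497-5p and mmu-miR-322-5p were the dimmest, with within-array differences of 0.55 ± 0.68 and 0.31 ± 0.52 between neighbours (SD, n = 10). Probes differ in how well they bind, so this is an order of brightness and not of molecules.

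**Figure D2:**
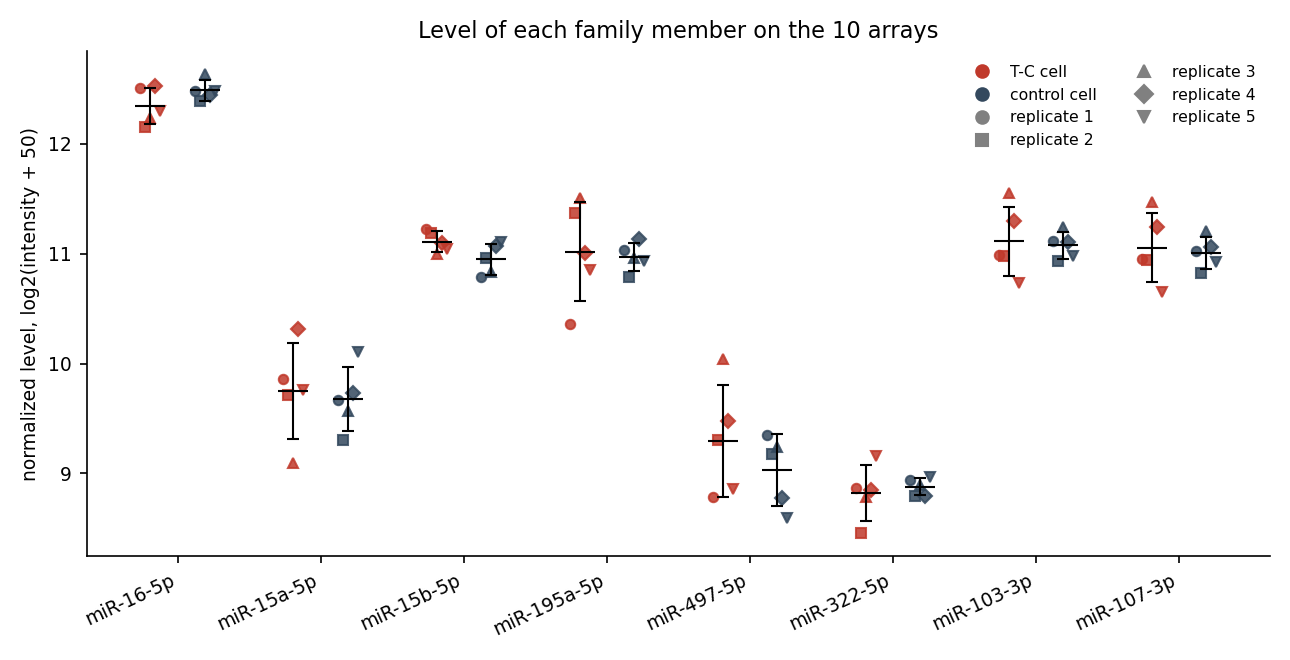
Normalized level of each member, log2(intensity + 50), on the 5 T-C cell arrays (red, left of each pair) and the 5 control cell arrays (dark, right). Symbols mark the replicate number, horizontal bars the mean and error bars the SD. The groups overlap for each of the 8 members, and mmu-miR-16-5p lies above all others.

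Detection was called above a limit of 3 SD over the average blank spot, which lay between 64.0 and 474 on the 10 arrays. Of the members, 6 were detected on all arrays. mmu-miR-15a-5p and mmu-miR-322-5p fell below the limit on T-C cell replicate 3 alone, the array with the limit of 474. Beyond the members, 6 miRNAs on the array hold GCAGCA within bases 2 to 8, the bases the 2 seeds share. The whole seed AGCAGCA is on 11 array miRNAs, 6 of them members. Of the miRNAs beyond the members, only miR-1906 (GCAGCAG) lacks it. None of the miRNAs beyond the members was detected on the 5 arrays needed to be tested. miR-1906 and miR-1907 were each detected on 4 arrays and miR-6342 and miR-6419 on 1. miR-195b and miR-6353 were detected on 0 of 10 arrays, although their 5′ ends match bright members:
miR-195b: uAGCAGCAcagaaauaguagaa
miR-6353: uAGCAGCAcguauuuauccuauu
miR-195b has the same first 16 bases as mmu-miR-195a-5p and miR-6353 the same first 12 bases as mmu-miR-16-5p, the capitals again marking the seed. At their highest, miR-195b reached 0.90 and miR-6353 reached 0.94 of an array's limit, while mmu-miR-195a-5p lay between 5.00 and 30.3 times and mmu-miR-16-5p between 8.93 and 97.9 times the limit. The pair that differs at 1 base near the 3′ end gave close to equal signal: mmu-miR-103-3p exceeded mmu-miR-107-3p by 0.06 ± 0.02 log2 units on T-C cell arrays and by 0.07 ± 0.03 on control cell arrays (SD, n = 5 each). Whether these probes tell the 2 miRNAs apart was not tested.

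**Figure D3:**
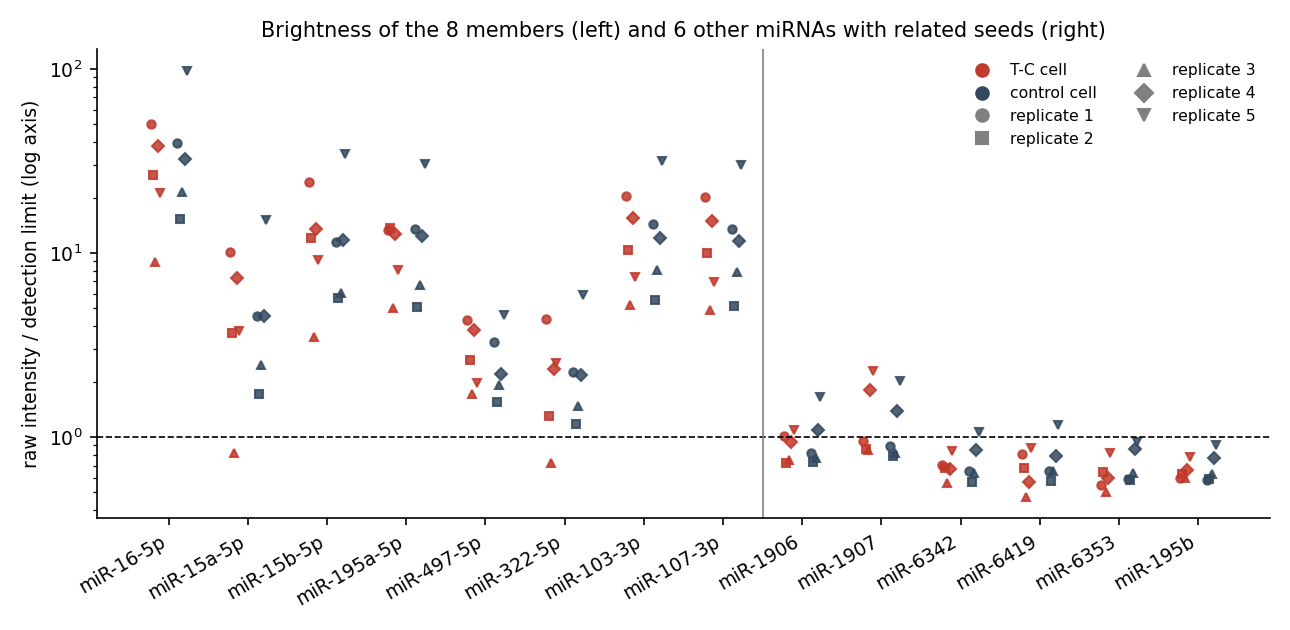
Raw intensity divided by the detection limit of the array (log axis, dashed line at 1). The 8 members are left of the vertical line and the 6 other miRNAs with the same or a related seed right of it. Each symbol is 1 array, with T-C cell arrays in red and control cell arrays in dark. The members lie above the limit except mmu-miR-15a-5p and mmu-miR-322-5p on T-C cell replicate 3, and the 6 others stay at or below 2.29 times the limit.

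mmu-miR-16-5p is made from a pair of hairpins with different neighbours. Positions and distances here and below are those of the mature miRNAs, not of the hairpins. On GRCm38 with GENCODE M21, Mir16-1 (chr14:61631936-61631957, minus strand) lies in an intron of the non-coding gene Dleu2, with mmu-miR-15a-5p 117 bases away (chr14:61632075-61632096). Mir16-2 (chr3:69009918-69009939, plus strand) lies in an intron of Smc4, which encodes a subunit of the condensin complex that compacts chromosomes, with mmu-miR-15b-5p 121 bases away (chr3:69009775-69009796). The raw intensity of mmu-miR-16-5p was 6724, 4639, 4233, 7942 and 4286 on T-C cell replicates 1 to 5, against 6438, 4883, 6467, 5496 and 6267 on control cell replicates 1 to 5. T-C cell replicates 1 and 4 were brighter than, and replicates 2, 3 and 5 dimmer than, all control cell arrays. After normalization its level was 12.34 ± 0.17 on the T-C cell arrays, against 12.49 ± 0.09 on the control cell arrays (SD, n = 5 each). The log2 difference was −0.14 (SE 0.13, 95% interval −0.42 to 0.14, limma adjusted p = 0.659), a fold between 0.747 and 1.10.

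mmu-miR-15a-5p, the partner of miR-16-1, had raw intensities of 1346, 649, 387, 1533 and 761 on T-C cell replicates 1 to 5, against 734, 545, 736, 770 and 967 on control cell replicates 1 to 5. The T-C cell arrays spread on both sides of the control cell arrays, with replicate 3 the lowest and replicate 4 the highest of all 10. The normalized level was 9.75 ± 0.44 on the T-C cell arrays, against 9.68 ± 0.29 on the control cell arrays (SD, n = 5 each), with a log2 difference of 0.07 (SE 0.23, 95% interval −0.43 to 0.57, limma adjusted p = 0.917). Without T-C cell replicate 4 it was −0.07 and without control cell replicate 2 it was −0.03.

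mmu-miR-15b-5p, the partner of miR-16-2, had raw intensities of 3239, 2113, 1657, 2833 and 1848 on T-C cell replicates 1 to 5, against 1851, 1820, 1820, 1998 and 2200 on control cell replicates 1 to 5. T-C cell replicates 1 and 4 were brighter than all control cell arrays. The normalized level was 11.11 ± 0.10 on the T-C cell arrays, against 10.95 ± 0.14 on the control cell arrays (SD, n = 5 each), and 5 of 5 T-C cell samples lay above the control cell mean. The log2 difference of 0.16 (SE 0.13, 95% interval −0.12 to 0.44) did not pass (limma adjusted p = 0.614), although no other member came closer.

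mmu-miR-195a-5p and mmu-miR-497-5p, which limit cell division in the mouse heart and muscle, lie 310 bases apart on chromosome 11, mmu-miR-497-5p at chr11:70234730-70234751 and mmu-miR-195a-5p at chr11:70235062-70235082, both on the plus strand and in no other annotated gene. mmu-miR-195a-5p had raw intensities of 1766, 2394, 2371, 2653 and 1624 on T-C cell replicates 1 to 5, against 2198, 1615, 2001, 2088 and 1937 on control cell replicates 1 to 5. After normalization T-C cell replicate 1 was the lowest of all arrays (10.36) and T-C cell replicate 3 the highest (11.51). The group levels were 11.02 ± 0.45 on the T-C cell arrays, against 10.97 ± 0.13 on the control cell arrays (SD, n = 5 each, log2 difference 0.05, 95% interval −0.40 to 0.50, limma adjusted p = 0.932).

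mmu-miR-497-5p had raw intensities of 573, 459, 814, 802 and 397 on T-C cell replicates 1 to 5, against 532, 495, 575, 371 and 295 on control cell replicates 1 to 5. It had the largest difference of the members, 0.27 on the log2 scale (SE 0.26, 95% interval −0.30 to 0.83, limma adjusted p = 0.686), with levels of 9.29 ± 0.51 on the T-C cell arrays, against 9.03 ± 0.33 on the control cell arrays (SD, n = 5 each). As for its neighbour, T-C cell replicate 3 was the highest of all arrays, at 10.04, and T-C cell replicate 1 the lowest of the T-C cell arrays, at 8.78. Without T-C cell replicate 3 the difference was 0.06.

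mmu-miR-322-5p, the rodent counterpart of human miR-424, promotes the exit from the cell cycle in differentiating mouse muscle cells and lies on the X chromosome (chrX:53054306-53054327, minus strand) in no other annotated gene. Its raw intensities were 581, 228, 342, 489 and 507 on T-C cell replicates 1 to 5, against 368, 374, 441, 367 and 380 on control cell replicates 1 to 5. The control cell arrays lay within the range of the T-C cell arrays. The normalized level was 8.82 ± 0.25 on the T-C cell arrays, against 8.88 ± 0.08 on the control cell arrays (SD, n = 5 each), with a log2 difference of −0.06 (SE 0.16, 95% interval −0.40 to 0.29, limma adjusted p = 0.893). Of 11 neighbours from its cluster on the array (both arms of miR-503, miR-351, miR-542 and miR-450b and 3 arms of miR-450a), 6 were detected on no array, 2 were tested and 0 passed. miR-351-5p differed by 0.06 (SE 0.08). miR-503-3p had raw intensities between 191 and 283 on T-C cell arrays and between 194.3 and 372 on control cell arrays, and differed by −0.42 (SE 0.17, 95% interval −0.79 to −0.05). Its limma p was 0.0308 and its adjusted p 0.193, so it did not pass. miR-503-5p, whose seed is close to that of the members, was detected on 1 of 10 arrays.

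mmu-miR-103-3p comes from Mir103-1 (chr11:35782447-35782469, plus strand) in an intron of Pank3 and from Mir103-2 (chr2:131288103-131288125, plus strand) in an intron of Pank2, and mmu-miR-107-3p from an intron of Pank1 (chr19:34820700-34820722, minus strand). The raw intensity of mmu-miR-103-3p was 2728, 1832, 2464, 3261 and 1488 on T-C cell replicates 1 to 5, against 2343, 1779, 2439, 2051 and 2019 on control cell replicates 1 to 5. T-C cell replicates 1, 3 and 4 were above all control cell arrays, and replicate 5 was below them. Normalized, it stood at 11.11 ± 0.32 on the T-C cell arrays, against 11.08 ± 0.12 on the control cell arrays (SD, n = 5 each, log2 difference 0.04, 95% interval −0.33 to 0.40, limma adjusted p = 0.937).

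mmu-miR-107-3p followed it array by array, with raw intensities of 2684, 1769, 2316, 3143 and 1402 on T-C cell replicates 1 to 5, against 2189, 1647, 2369, 1980 and 1921 on control cell replicates 1 to 5. Its log2 difference was 0.05 (SE 0.17, 95% interval −0.32 to 0.42, limma adjusted p = 0.929). Between these 2 members, the root mean square difference of their centred levels over the 10 arrays was 0.02 log2 units, the smallest among all pairs of members. The next, between mmu-miR-16-5p and mmu-miR-322-5p, was 0.17.

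The opposite arms of the members' hairpins are usually degraded. Of 10 on the array, 3 were tested and 0 passed, with log2 differences of −0.11 for miR-15a-3p (SE 0.18), 0.07 for miR-195a-3p (SE 0.19) and −0.07 for miR-16-2-3p (SE 0.09). miR-15a-3p, the most often detected of them, was above the limit on 3 T-C cell arrays and 4 control cell arrays, and its raw intensity ran between 201 and 532 on T-C cell arrays and between 236 and 311 on control cell arrays. The arm opposite mmu-miR-497-5p was detected on no array, and that opposite mmu-miR-107-3p on 1. The arms of the Mir103-1 and Mir103-2 hairpins, which tell the loci of mmu-miR-103-3p apart, were detected on 2 and 3 of 10 arrays, so neither was tested.

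Members were then compared with each other within each array on the normalized log2 scale. A constant shift of an array cancels in this measure. The scaling used here changes with intensity, so it does not cancel between a bright and a dim member. The 6 pairs were drawn from members with a shared seed or neighbouring hairpins, except mmu-miR-103-3p against mmu-miR-16-5p, which share neither. mmu-miR-195a-5p and mmu-miR-497-5p were not compared in this way. Of the 6 pairs, 0 differed between the groups after Benjamini-Hochberg adjustment by an exact two-sided permutation test over every split of the arrays into 5 and 5, whose smallest p is 0.00794. With 6 pairs, a pair could pass alone only at that smallest p, for an exact permutation adjusted p of 0.0476. The 0 therefore says little on whether pairs differ. The pair nearest to passing was mmu-miR-15b-5p against mmu-miR-16-5p, neighbours in Smc4. The level of mmu-miR-15b-5p relative to mmu-miR-16-5p was −1.23 ± 0.17 on the T-C cell arrays, against −1.54 ± 0.20 on the control cell arrays (SD, n = 5 each), and 4 of 5 T-C cell samples lay above all control cell samples. The difference of 0.30 (95% interval 0.04 to 0.57, by inverting the exact permutation test) had an exact permutation p of 0.0317 and an adjusted p of 0.190. Under quantile normalization it was 0.36 and passed (exact permutation p = 0.00794, adjusted p = 0.0476). Over all alternatives its unadjusted exact p ran from 0.00794 to 0.159, but the tests were not all alike. The replicate block flipped the signs of 5 same-numbered differences, a test that cannot fall below 0.05 (exact sign-flip p = 0.125). Leaving out arrays left fewer splits. A part of mmu-miR-16-5p comes from the Dleu2 locus, so this ratio does not compare the arms of 1 transcript alone.

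Of the other pairs, mmu-miR-15a-5p relative to mmu-miR-16-5p differed by 0.21 (95% interval −0.30 to 0.63, exact permutation p = 0.317, adjusted p = 0.651). Leaving out T-C cell replicate 4 gave 0.11, leaving out T-C cell replicate 3 gave 0.35, and leaving out control cell replicate 5 gave 0.34. mmu-miR-15b-5p relative to mmu-miR-15a-5p differed by 0.09 (−0.41 to 0.57, exact permutation adjusted p = 0.690). mmu-miR-322-5p relative to mmu-miR-16-5p differed by 0.09 (−0.13 to 0.37) and mmu-miR-103-3p relative to mmu-miR-16-5p by 0.18 (−0.16 to 0.55). The difference of mmu-miR-103-3p relative to mmu-miR-16-5p was 0.034 without T-C cell replicate 3. Under median centring, and also without normalization, this difference was 0.226 (exact permutation p = 0.0476, adjusted p = 0.143). The signs of the mmu-miR-15b-5p against mmu-miR-15a-5p and mmu-miR-322-5p against mmu-miR-16-5p differences turned under some alternatives. mmu-miR-103-3p relative to mmu-miR-107-3p differed by −0.01 (−0.05 to 0.03, exact permutation p = 0.500, adjusted p = 0.657), the narrowest interval of the 6. Under quantile normalization the difference of this pair was −0.052 (exact permutation p = 0.0317, adjusted p = 0.0952).

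**Figure D4:**
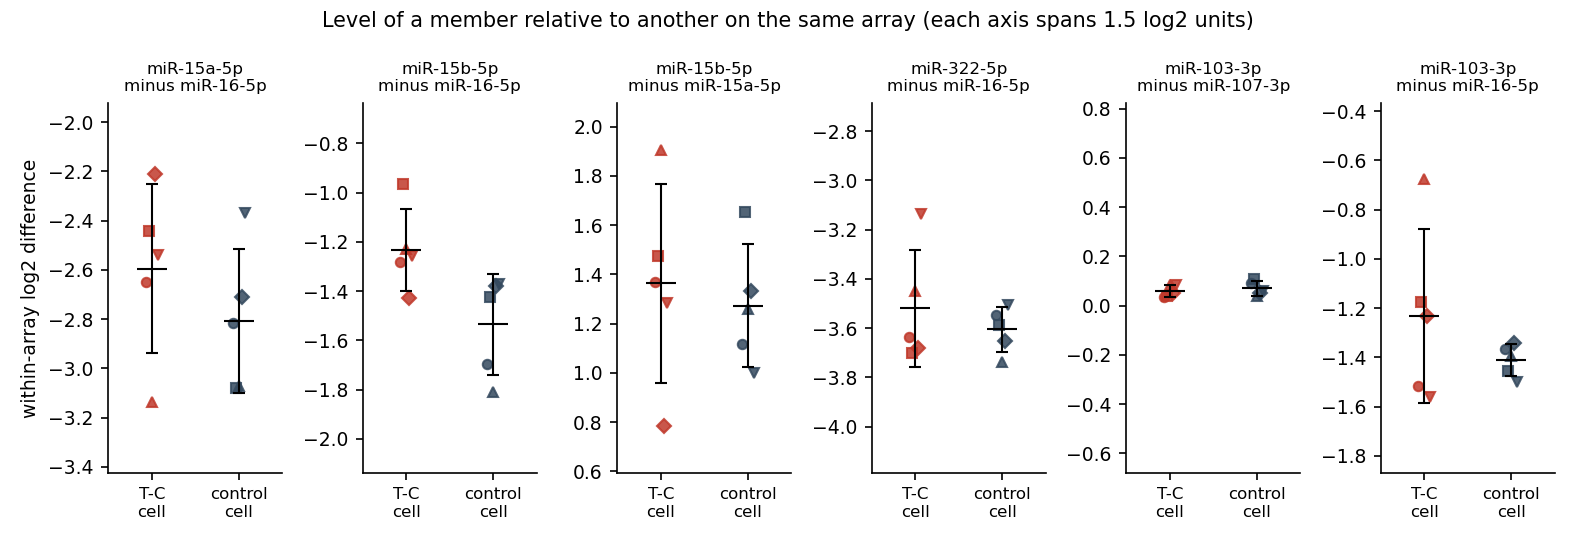
Within-array log2 difference of 6 pairs of members on T-C cell arrays (red, left) and control cell arrays (dark, right), with mean and SD (n = 5 each). The vertical axes span the same number of log2 units but start at different values. The mmu-miR-15b-5p against mmu-miR-16-5p values have 4 of 5 T-C cell arrays above all control cell arrays, and those of mmu-miR-103-3p against mmu-miR-107-3p stay between 0.03 and 0.11.

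The members differed in how much they varied between arrays of a group. The SD within groups was 0.12 for mmu-miR-15b-5p and 0.13 for mmu-miR-16-5p, lower than for most tested miRNAs (percentiles 4.41 and 6.30), and 0.43 for mmu-miR-497-5p and 0.37 for mmu-miR-15a-5p (percentiles 76.1 and 68.1). The median was 0.24 over the members and 0.29 over all tested miRNAs. For 7 of 8 members the SD was larger among T-C cell than among control cell samples, as it was for 365 of all 476 tested miRNAs. The exception was mmu-miR-15b-5p. The T-C cell arrays at the extremes differed by member. Replicate 3 was the highest of the T-C cell arrays for mmu-miR-195a-5p, mmu-miR-497-5p, mmu-miR-103-3p and mmu-miR-107-3p and the lowest for mmu-miR-15a-5p. Replicate 1 was the lowest for mmu-miR-195a-5p and mmu-miR-497-5p, and replicate 4 the highest for mmu-miR-15a-5p and mmu-miR-16-5p. For mmu-miR-322-5p the extremes were replicate 2 (8.45) and replicate 5 (9.16). With replicates 1 and 3 both left out, chosen after seeing the data, again 0 of 8 members passed, where 1 of all tested miRNAs did. The differences of mmu-miR-103-3p and mmu-miR-107-3p were then −0.05 and −0.04.

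**Figure D5:**
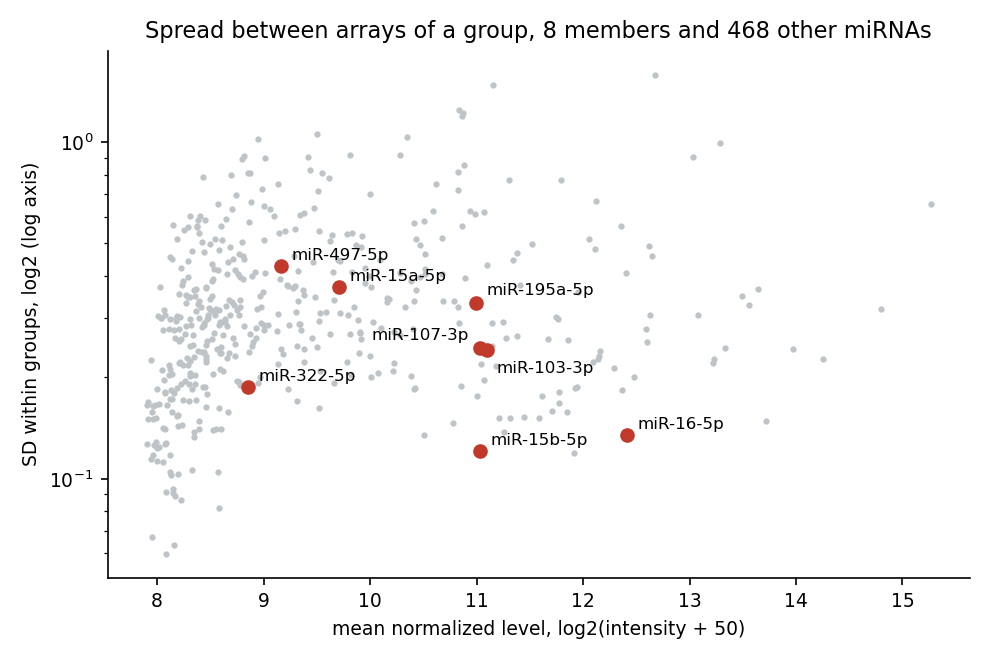
SD within groups (log axis) against mean normalized level of the 8 members (red, named) and the other tested miRNAs (grey). mmu-miR-15b-5p (0.12) and mmu-miR-16-5p (0.13) lie near the lower edge at their level, and mmu-miR-497-5p (0.43) is the most variable member.

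Levels outside the family were set against mmu-miR-16-5p by the root mean square difference of centred levels over the 10 arrays. The closest were miR-126a-3p, an endothelial miRNA (0.09 log2 units), miR-7050-5p (0.14), miR-434-3p (0.14), miR-351-5p (0.14) and miR-7665-5p (0.15), against a median of 0.32 over the 468 compared. miR-126a-3p was the only one of these near mmu-miR-16-5p in brightness, at a mean level of 11.71. For mmu-miR-103-3p the closest were miR-143-3p, a smooth muscle and mesenchymal miRNA (0.10), miR-24-3p (0.14), miR-192-3p (0.15), miR-138-5p (0.16) and miR-106b-5p (0.17), against a median of 0.38. By this measure a miRNA that hardly varies also comes out close to a steady member such as mmu-miR-16-5p. A small value therefore does not by itself show a shared pattern.

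The arrays as a whole set limits to these values. Between 189 and 1314 miRNAs were detected per array, the fewest on T-C cell replicate 3 and the most on control cell replicate 5. Of the markers of the labelled tissue, miR-122-5p, by far the most abundant in hepatocytes, was detected on 1 of 10 arrays, while miR-192-5p, miR-194-5p and miR-148a-3p were detected on all. The other lists had all their members on the array tested except the red blood cell list. There miR-144-3p was detected on 1 array and miR-451a on 10. Another marker chosen for that list had no row under its name, so miR-451a alone stands for it. The summed raw intensity of the tested markers on T-C cell and control cell arrays overlapped in each list. These sums had no background removed and no scaling between arrays. The groups came closest to separating for the 3 white blood cell markers, with 1645 to 4133 on T-C cell arrays and 1236 to 1730 on control cell arrays. The brightest of these markers was miR-150-5p, with 1007 to 3218 on T-C cell arrays and 693 to 1205 on control cell arrays. It passed, alone among all the markers, with a log2 difference of 0.86 (limma adjusted p = 0.0433). miR-142-3p differed by 0.34 and miR-223-3p by 0.29 without passing. The 4 mesenchymal or stellate markers summed to between 29564 and 54887 on T-C cell arrays and between 36610 and 44015 on control cell arrays. The 4 epithelial markers, each detected on 10 arrays, summed to between 14728 and 26424 on T-C cell arrays. On control cell arrays their sum lay between 14692 and 26128. In RNA from many cells, fewer cells of a type and less RNA per cell cannot be told apart.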

How the data were processed

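The authors deposited the median intensity of every spot, a linear brightness with no scaling between arrays, per the file headers. Each array held 3968 spots, of which 3784 were for miRNAs and 16 blank. Header numbers of the arrays do not interleave between groups, and their meaning is not stated, so a batch of that kind cannot be told apart from the group.

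Here 50 was added to each intensity before taking log2, both spots of a miRNA were combined as a mean, and cyclic loess over all miRNAs scaled the arrays (limma 3.58.1, R 4.3.3, jsonlite 2.0.0). Folds on this scale understate those of miRNAs near background. Detection on 5 or more of the 10 arrays was needed for a test by limma (linear model, moderated with an intensity trend). Pairs of members went through exact two-sided permutation. The number of arrays limits precision. The limma fit was tried on simulated normalized values, with added differences far larger than any member's, and the permutation test on random numbers. Scaling, detection and the averaging of spots were not part of that trial. All members are described, with their opposite arms, the miR-322 cluster and other miRNAs with the same or a related seed. Also named are the 5 miRNAs closest to miR-16-5p and miR-103-3p by root mean square difference, markers of cell types, and miR-29a-3p for scale. The members, lists and pairs were chosen with earlier results of these data known. Mature sequences and positions are from RefSeq on GRCm38, gene overlaps from GENCODE M21 (Python 3.11.15). Alternatives changed the scaling, offset, background, filter, spots and array weights, added a replicate block, and left out each array.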

Additional observations from a re-analysis of the deposited data

How the results depend on the processing

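Under 22 alternatives to the processing, the number of members that passed the adjusted threshold remained 0, also with each array left out in turn. Where only miRNAs detected on all 10 arrays were kept, 6 members were tested, without miR-15a-5p and miR-322-5p. Over all tested miRNAs the count of 37 became 3 after subtraction of the blanks (floor 1), 14 under median centring, 1 with all miRNAs on the array tested, 18 among miRNAs detected on all 10 arrays and 1 with T-C cell replicates 1 and 3 both left out, a setting added after seeing the data. With single arrays left out it ran from 1 to 43: leaving out T-C cell replicate 1 gave 12 and T-C cell replicate 4 gave 1, control cell replicates 1 and 5 gave 3 each, and control cell replicates 2 and 3 gave 1 each. With so few miRNAs called in all, these 6 fits could hardly have called a member at the adjusted threshold. At an unadjusted p of 0.05 they called between 77 and 91 miRNAs by limma, and 0 members. Same-numbered samples did not deviate together (correlations from −0.20 to 0.26, and 1 of 5 T-C cell samples correlated best with its own number), and with a replicate block 22 miRNAs and 0 members passed.

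The signs of differences near 0 turned in some settings, and the cause was not tested. miR-103-3p was −0.0091 under median centring, −0.058 with array weights and −0.052 with both T-C cell replicates left out, where miR-107-3p was −0.041, and −0.050 with array weights. miR-322-5p was 0.082 without normalization, which put the median of all tested miRNAs at 0.14. Relative to miR-16-5p, miR-322-5p was −0.019 under quantile normalization and −0.069 with blanks subtracted, and miR-15b-5p relative to miR-15a-5p was −0.070 with both replicates left out. With single arrays left out, miR-15a-5p ran from −0.069 to 0.22, miR-195a-5p from −0.088 to 0.23, miR-322-5p from −0.15 to 0.028, miR-103-3p from −0.090 to 0.13 and miR-107-3p from −0.072 to 0.15. In the same fits, miR-15b-5p relative to miR-15a-5p ran from −0.049 to 0.24 and miR-322-5p relative to miR-16-5p from −0.030 to 0.13. miR-16-5p stayed negative (−0.23 to −0.05), and miR-15b-5p (0.11 to 0.30) and miR-497-5p (0.06 to 0.46) stayed positive in all 22 settings. Signal limits the dim members: mmu-miR-322-5p lay between 0.722 and 5.94 times the detection limit.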

Other observations

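The 2 spots of a member differed with a common sign for most members. For miR-16-5p, miR-15b-5p, miR-195a-5p and miR-107-3p the second spot was the brighter one on 10 of 10 arrays, with a median log2 excess of 0.19 for miR-16-5p and 0.20 for miR-15b-5p. miR-497-5p, the exception, had the brighter second spot on 3 of 10 arrays, and its spots differed most on control cell replicate 5, by 0.67. Of the 31 columns of the array, columns 1 to 3 hold the first spots of 6 members, and the members' other 2 first spots lie further in. Among tested miRNAs outside the family, the second spot was brighter for 98.9% of the 94 with their first spot in columns 1 to 3 (median 0.14), against 33.7% of the 374 with it elsewhere (median −0.05). Averaging the 2 spots, or using either alone, left 0 members past the threshold.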
